A study of Mus musculus with 6 samples.

Results

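The genes described here build the junctions that hold heart muscle cells to each other. They are 10 genes picked by name, namely the cadherins Cdh2 and Cdh11, the catenins Ctnna1, Ctnna3, Ctnnd1 and Jup, and the desmosome genes Pkp2, Dsp, Dsg2 and Dsc2, out of 23284 genes in the deposited table, and each had exactly 1 row. RNA was taken from the heart ventricles of C57BL/6 embryos at E9.5, from 3 WT and 3 KD embryos, all of which were grown by tetraploid complementation, a method in which the embryo proper forms from injected ES cells. WT embryos came from wild type ES cells. KD embryos came from ES cells with the genotype Tbx5ua -/-, in which tandem polyadenylation signals were inserted into both alleles of the lncRNA gene Tbx5ua so that its transcription ends early, and whose selection markers were taken out with Cre recombinase. The edited ES cells were picked as single colonies, and embryos were made from 2 ES cell lines. Which line each sequenced embryo came from is not given in the sources used here, so embryos of a group may share a clonal line. The insertion is carried by the ES-derived embryo as a whole, not by the myocardium alone, while the tetraploid host cells form extraembryonic tissue.

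Adherens junctions join neighbouring cells through classical cadherins, whose extracellular domains bind each other across the gap. Inside the cell their tails hold p120-catenin and either beta-catenin or plakoglobin, and an alpha-catenin ties the complex to actin. Desmosomes use a second cadherin pair, the desmogleins and desmocollins, which plakoglobin, plakophilin and desmoplakin connect to intermediate filaments. In the mature heart both kinds of junction mingle at the intercalated discs, whereas in the embryonic ventricle they lie scattered along the cell borders.

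Cuffdiff, the program the authors used, wrote 1 FPKM value per gene and group (fragments per kilobase of transcript, scaled to the size of the library). There is no value for a single embryo, so no SD, no interval and no test of a difference is given, and each difference is one between 2 group values whose error is not known from these columns. The depth of the libraries is unknown. A fixed size was used in place of a test: a gene was counted as different when its group values differed by at least 1.5-fold, among the 11606 genes with at least 1 FPKM in either group. In these bulk samples, fewer cells of a type and less RNA per cell cannot be told apart. The lncRNA targeted in KD, Tbx5ua, was not analysed here, and it could not serve to check the labels.

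The junction genes of the KD ventricles were at nearly the WT level, with the exception of Cdh11. The KD value of Cdh11 was 1.75-fold the WT value, and of the other 9 genes none reached 1.5-fold. Between them, 8 of the 10 genes differed by less than 15% of the lower value. So did 60.4% of all genes kept, so small differences were common in the whole table and no trait of these genes. Ctnna3, at a 1.31-fold lower value in KD, was the one gene in between. So 1 of 10 genes differed by at least 1.5-fold, against 8.18% of all genes kept (949 of 11606), a share near the background that singles out nothing about the 10 genes as a set. By direction, 4.84% of all genes were at least 1.5-fold higher in KD and 3.33% at least 1.5-fold lower.

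**Figure D1:**
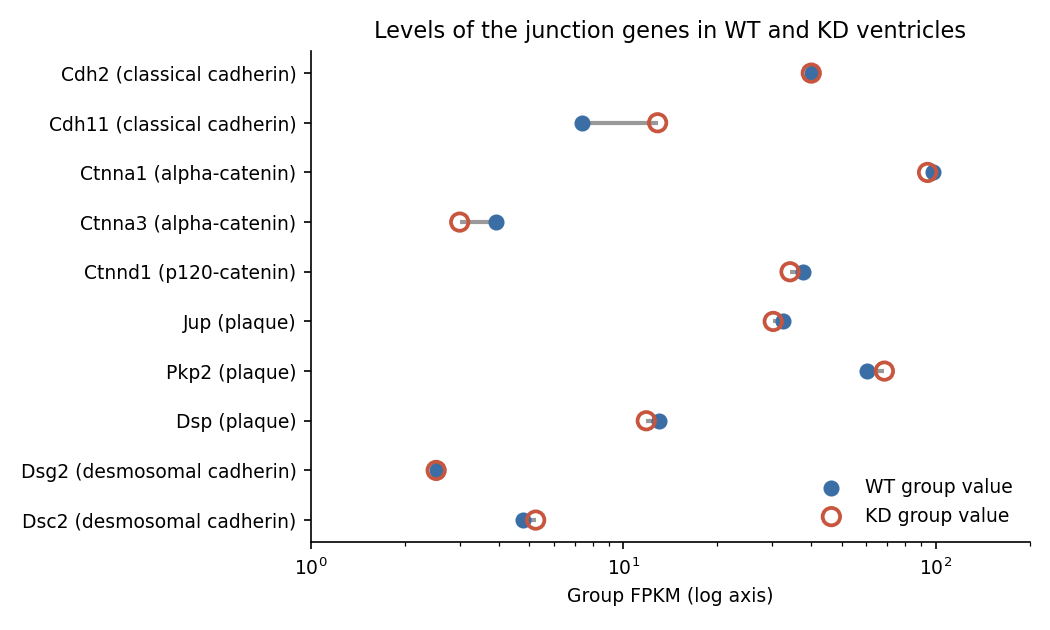
Group FPKM on a log axis for each of the 10 junction genes, with filled points for WT and open points for KD, 1 deposited value per group and no error bars since no values of single embryos were used. Cdh11 moves from 7.37 to 12.9 FPKM and Ctnna3 from 3.92 to 2.99 FPKM, while the points of Cdh2 and Dsg2 lie on top of each other.

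Cdh2 encodes N-cadherin, the main classical cadherin of the myocardium. Its group value was 40.1 FPKM in WT against 39.9 FPKM in KD, a log2 ratio of KD over WT of -0.01. This was the smallest difference of the 10 genes, and 97.6% of the genes kept had a log2 ratio at least as far from 0. Cdh11 encodes cadherin 11, a cadherin best known from mesenchymal cells. It stood at 7.37 FPKM in the WT group and 12.9 FPKM in the KD group, a gain of 5.49 FPKM and a log2 ratio of 0.80. Of the genes kept, 4.43% had a log2 ratio this far from 0 in either direction. With the gain, the level of Cdh2 went from 5.44-fold to 3.10-fold that of Cdh11. Among the 10 genes ordered by FPKM, Cdh11 was at place 7 in WT and at place 6 in KD, where it passed Dsp, and every other gene kept its place.

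The catenins carry the cadherin tails to the cytoskeleton. Ctnna1, the alpha-catenin found in most tissues, had the highest level of the 10 genes, with 97.8 FPKM in WT against 94.1 FPKM in KD (log2 ratio -0.06). Ctnna3 encodes alpha-T-catenin, a form enriched in heart and testis that also binds plakophilin 2. Its level was low in both groups, with 3.92 FPKM in the WT group and 2.99 FPKM in the KD group, a log2 ratio of -0.39 that 16.6% of the genes kept equalled or exceeded in size. The level of Ctnna1 was therefore 24.9-fold that of Ctnna3 in WT and 31.5-fold in KD. Ctnnd1 encodes p120-catenin, which holds classical cadherins at the membrane. It had 37.6 FPKM in WT against 34.1 FPKM in KD (log2 ratio -0.14), close to the level of Cdh2, its partner, in both groups.

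Jup encodes plakoglobin, the catenin that works in adherens junctions and desmosomes alike. It had 32.5 FPKM in the WT group and 30.2 FPKM in the KD group, a log2 ratio of -0.11. Beta-catenin (Ctnnb1), its relative, which is not among the 10 genes, had 95.6 FPKM in WT against 103 FPKM in KD. The level of Ctnnb1 was thus 2.95-fold that of Jup in WT and 3.40-fold in KD.

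The other plaque genes were Pkp2 and Dsp. Pkp2 encodes plakophilin 2, the plakophilin of heart desmosomes, and had the second highest level of the 10 genes, with 60.4 FPKM in the WT group and 68.5 FPKM in the KD group (log2 ratio 0.18). Dsp encodes desmoplakin, the plaque protein that grips intermediate filaments. It had 13.0 FPKM in WT against 11.8 FPKM in KD, a log2 ratio of -0.14. The small differences ran in opposite directions, so that the level of Pkp2 was 4.64-fold that of Dsp in WT and 5.79-fold in KD.

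The desmosomal cadherins had the lowest levels among the desmosome genes described here. Dsg2 (desmoglein 2) had 2.53 FPKM in the WT group and 2.51 FPKM in the KD group (log2 ratio -0.01). Dsc2 (desmocollin 2) had 4.78 FPKM in WT against 5.23 FPKM in KD (log2 ratio 0.13). The level of Dsc2 was 1.89-fold that of Dsg2 in WT and 2.08-fold in KD. Set beside the classical cadherin of the same samples, the level of Cdh2 was 15.8-fold that of Dsg2 in WT and 15.9-fold in KD.

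Levels across the 10 genes spanned 38.6-fold in WT, from Dsg2 to Ctnna1, and 37.5-fold in KD. Relative to the median WT level of the genes kept, 9.62 FPKM, 6 of the junction genes lay above and 4 below, the latter being Cdh11, Dsc2, Ctnna3 and Dsg2. In the order of levels Cdh2 and Ctnnd1 were neighbours at 1.07-fold in WT and 1.17-fold in KD, and without values of single embryos it cannot be said which neighbours differ beyond their spread. The median log2 ratio of the 10 genes was -0.03, beside 0.00492 over all genes kept. In size, without the sign, the median log2 ratio was 0.13 for the 10 genes and 0.15 for all genes kept. Of all genes kept, 60.4% differed by less than 15%.

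**Figure D2:**
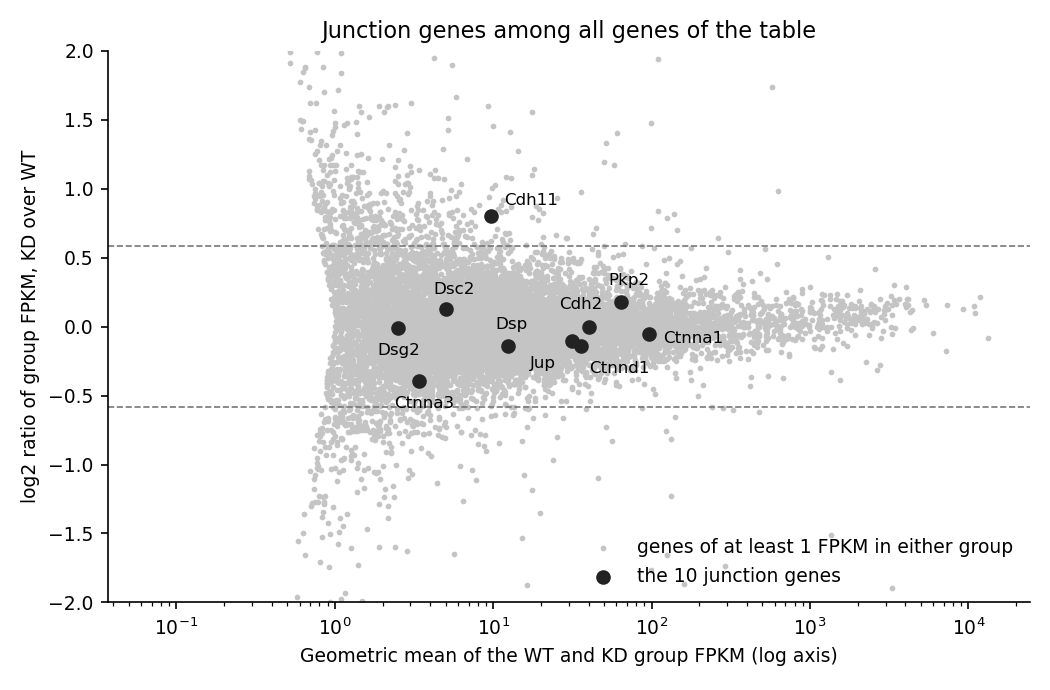
log2 ratio of group FPKM, KD over WT, against the geometric mean of both group values on a log axis, with grey points for genes of at least 1 FPKM in either group, black points for the 10 junction genes and dashed lines at 1.5-fold. Cdh11 is the one junction gene outside the dashed lines, and ratios spread more widely at low levels. The axis leaves out 42 genes with a log2 ratio beyond 2 in size and 58 genes listed at 0 in 1 group.

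The families to which these genes belong showed which member supplied most of the transcript. FPKM values were summed within a family, and each gene was expressed as a share of the sum. Among 19 cadherin genes of the Cdh family, 7 had at least 1 FPKM in either group and the sum was 72.3 FPKM in the WT group and 80.3 FPKM in the KD group. Cdh2 made up 55.5% of this sum in WT, against 49.7% in KD, although its own level hardly differed. Cdh11 made up 10.2% in WT and 16.0% in KD, a difference of 5.83 percentage points beside -5.75 points for Cdh2. Cdh5, the VE-cadherin of endothelium, made up 14.6% in WT and 12.1% in KD, and Cdh3 (P-cadherin) 13.6% and 14.9%. By group value Cdh11 thus ranked behind Cdh2, Cdh5 and Cdh3 in WT and behind Cdh2 alone in KD. In KD Cdh11 and Cdh3 lay close, at 12.9 FPKM and 12.0 FPKM. Without values of single embryos it cannot be said that these 2 differ beyond their spread. Cdh1, the E-cadherin of epithelia, was at 0.00507 FPKM in WT against 0.0198 FPKM in KD.

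In the other families the shares lay closer together. Ctnna1 supplied 96.1% of the alpha-catenin sum in WT and 96.7% in KD. Ctnna3 supplied 3.85% and 3.07%, and Ctnna2, the alpha-catenin of neurons, was under 1 FPKM in both groups. Jup made up 25.3% of the summed level of beta-catenin and plakoglobin in WT and 22.7% in KD. In the p120 family, which also holds Ctnnd2, Arvcf and Pkp4, Ctnnd1 made up 74.8% in WT and 72.6% in KD. Pkp2 made up 99.97% of the summed level of plakophilins 1 to 3 in WT and 99.83% in KD, with Pkp1 listed at 0 and Pkp3 at 0.0210 FPKM in the WT group and 0.118 FPKM in the KD group.

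**Figure D3:**
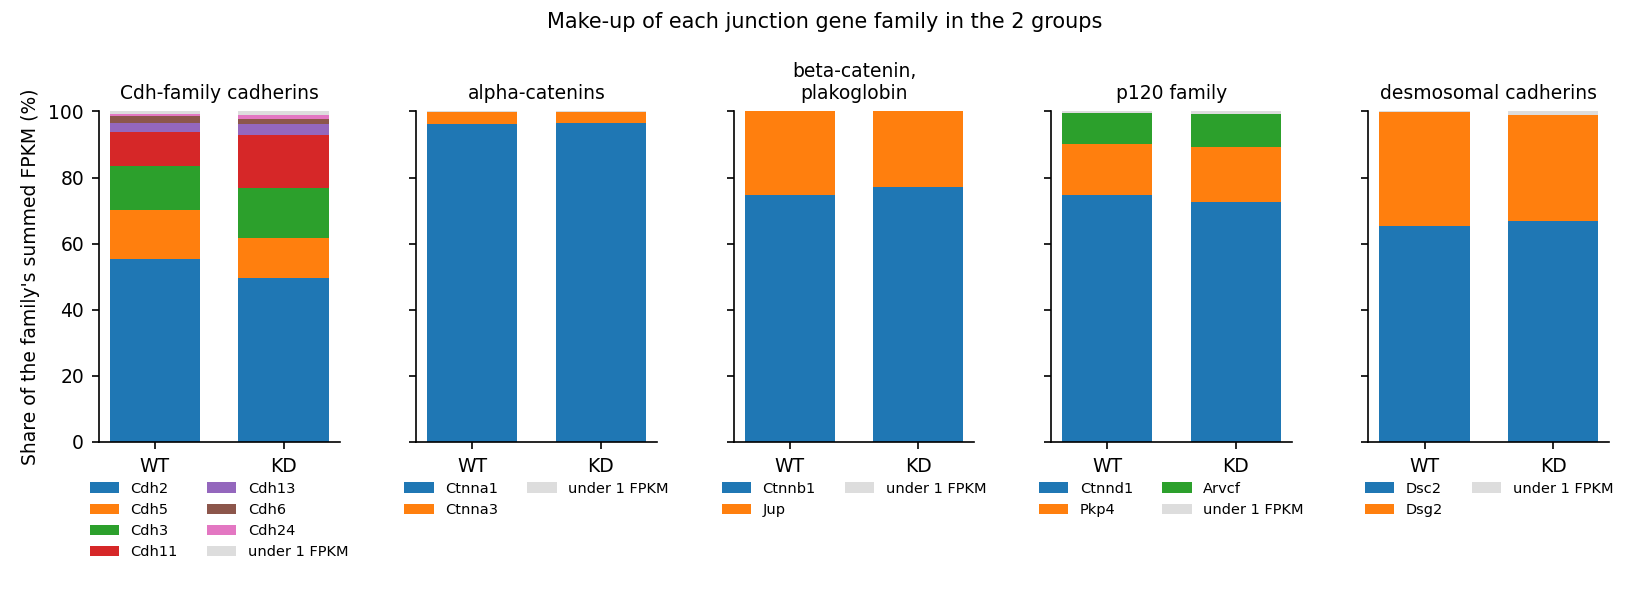
Share of the family's summed FPKM held by each gene, in percent, as a pair of stacked bars (WT and KD) for each of 5 families, with genes under 1 FPKM in both groups pooled in grey. Cdh11 takes 10.2% of the cadherin bar in WT and 16.0% in KD, while the alpha-catenin bars are nearly all Ctnna1 in both groups.

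Dsc2 and Dsg2 lie in a cluster of 9 desmosomal cadherin genes on chromosome 18 that spans 644 kb (mouse genome build mm10). Dsc2 runs from 20030798 to 20059505 and Dsg2 from 20558116 to 20604526, with 6 other genes of the cluster between them (Dsc1, Dsg1c, Dsg1a, Dsg1b, Dsg4 and Dsg3). Those 6 genes and Dsc3 are known mainly from skin and other stratified epithelia. None of the 7 exceeded 0.0705 FPKM in either group. Dsg1a, Dsg1b, Dsg1c and Dsg4 were listed at 0 in both. Dsc2 made up 65.3% of the summed level of the cluster in WT and 66.8% in KD, and Dsg2 34.5% and 32.1%. In each group, then, Dsc2 and Dsg2 accounted for nearly all of the desmosomal cadherin transcript.

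The other members lie on several chromosomes. Cdh2, on the minus strand of chromosome 18 from 16588877 to 16809049, and Ctnna1, on the plus strand of the same chromosome from 35118912 to 35254775, bring the number of the 10 genes on that chromosome to 4. Cdh11 lies on the minus strand of chromosome 8 from 102632995 to 102785111, Ctnnd1 on the minus strand of chromosome 2 from 84600781 to 84650740, and Jup on the minus strand of chromosome 11 from 100368856 to 100397790. Pkp2 lies on the plus strand of chromosome 16 from 16213345 to 16272712 and Dsp on the plus strand of chromosome 13 from 38151294 to 38198577. Ctnna3 covers 1573570 bases on the plus strand of chromosome 10, from 63430098 to 65003667, by far the longest of the 10 genes.

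Some of these genes share their ground with others in the GENCODE annotation of that build. The neuronal gene Lrrtm2 lies inside Ctnna1 on the opposite strand, and Lrrtm3 likewise inside Ctnna3. In the table each such pair carries a single locus. Since Smart-Seq2 libraries do not keep the strand, reads from exons that overlap could not be assigned by strand. Lrrtm2 had 0.381 FPKM in WT against 0.285 FPKM in KD, and Lrrtm3 0.317 FPKM and 0.213 FPKM. The part of such reads in the values of Ctnna1 and Ctnna3 was not tested. Antisense or predicted transcripts also overlap Cdh2, Cdh11, Ctnna3, Dsp and Dsg2, a predicted protein-coding gene (Gm28635) overlaps Ctnnd1 on its own strand, and these have no matched row in the table. No overlapping gene was found for Jup, Pkp2 and Dsc2.

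Wider lists place the 10 genes among their partners. Beside the 10 genes these lists hold 105 genes of the table, 61 of them with at least 1 FPKM in either group. Of the 61 genes 7 were at least 1.5-fold higher in KD and 0 at least 1.5-fold lower, or 11.5% against 8.18% of all genes kept, and the median log2 ratio was 0.02. Among the 8 catenins and related genes at 1 FPKM or above, members included, 0 differed by at least 1.5-fold, with log2 ratios from -0.39 for Ctnna3 to 0.31 for Ctnnbip1, an inhibitor of beta-catenin. Both p120 relatives, Arvcf and Pkp4, had a log2 ratio of 0.02. Of the 7 desmosome genes at that level 0 passed, with log2 ratios from -0.28 for Pnn to 0.18 for Pkp2.

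In the Cdh family 2 of 7 genes passed, Cdh11 and Cdh24. Cdh24, a little studied cadherin, had 0.375 FPKM in the WT group and 1.05 FPKM in the KD group, and so entered the count only through its KD value. Of 21 partners at the intercalated disc, 2 were at least 1.5-fold higher in KD. They were Gja5 (connexin 40), with 7.02 FPKM in WT against 12.1 FPKM in KD, and Nrap, an anchoring protein of developing myofibrils, with 1.15 FPKM and 1.98 FPKM. Vcl (vinculin), which binds alpha-catenin, stood at 24.6 FPKM in the WT group and 23.3 FPKM in the KD group. Des (desmin), the filament that desmoplakin holds, had 677 FPKM and 650.3 FPKM. Tjp1, a scaffold of the junction plaque, had 11.2 FPKM and 10.8 FPKM.

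Of 7 large cadherins and protocadherins at 1 FPKM or above, 0 differed by at least 1.5-fold, and 5 of them had a value below that of WT. Of 14 genes of cadherin cleavage and turnover, 2 were at least 1.5-fold higher, the proprotein convertases Pcsk5 (2.65 FPKM in WT, 4.39 FPKM in KD) and Pcsk6 (1.65 FPKM and 2.61 FPKM). Furin, a convertase of the same family, had 9.54 FPKM in WT against 8.26 FPKM in KD. Of 7 transcription factors known to repress the E-cadherin gene or to drive mesenchymal fate, 2 were at least 1.5-fold higher. Snai2 had 1.45 FPKM in the WT group and 2.52 FPKM in the KD group, and Twist1 had 1.98 FPKM and 3.23 FPKM. Snai1, a close relative of Snai2, had 9.06 FPKM in WT against 7.73 FPKM in KD, a difference under 1.5-fold.

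**Figure D4:**
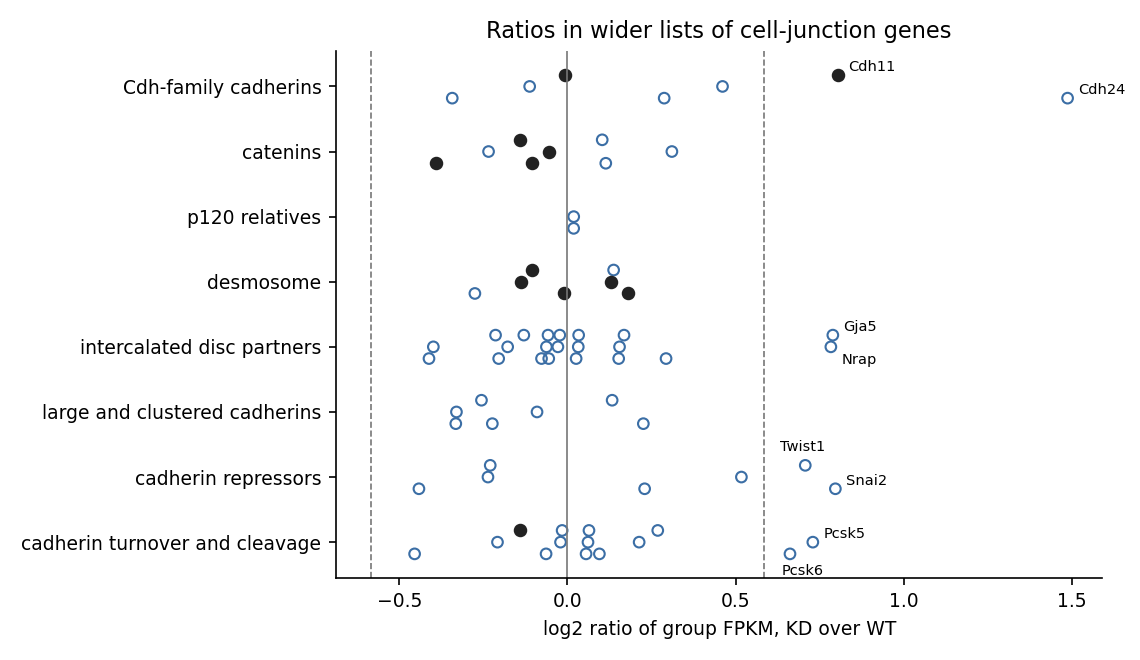
log2 ratio of group FPKM, KD over WT, of every gene with at least 1 FPKM in either group in 8 lists of cell-junction genes, 1 point a gene in each list that holds it, filled black for the 10 junction genes, with dashed lines at 1.5-fold and the genes beyond them named. The points of the catenin and desmosome lists stay between the lines, and each of the 8 named genes, Cdh11 among them, lies on the side of higher KD values.

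Cdh11 was compared with markers of the cell types a ventricle sample can hold, because it is known from mesenchyme. All 5 markers of cushion mesenchyme or fibroblasts with at least 1 FPKM were higher in KD, 4 of them by at least 1.5-fold (Twist1, Sox9, Pdgfra and Col1a1), and the sum of the 6 listed genes went from 17.4 FPKM in WT to 31.6 FPKM in KD. Sox9 had 8.95 FPKM in the WT group and 16.0 FPKM in the KD group, and Col1a1 1.76 FPKM and 4.64 FPKM. All 6 epicardial or mesothelial markers were higher in KD, 5 by at least 1.5-fold (Tbx18, Tcf21, Upk3b, Upk1b and Aldh1a2), and their sum went from 47.0 FPKM to 95.9 FPKM. Pdgfra (0.969 FPKM in WT, 2.78 FPKM in KD) and Aldh1a2 (0.872 FPKM and 1.74 FPKM) entered these counts only through their KD values. A filter chosen after seeing the data asked for at least 1 FPKM in both groups. Under it 7 of 9 genes of both lists were at least 1.5-fold higher, beside 329 of 11001 genes in the whole table. In either direction 5.01% of all genes passed under that filter. Twist1 belongs also to the list of repressors above. Over all 6 genes of each list, with no filter, the median log2 ratio was 0.89 for the mesenchymal list and 1.05 for the epicardial list, beside 0.80 for Cdh11. None of the defining markers of either list was at 0, and the lowest was Prrx1 with 0.324 FPKM in WT against 0.623 FPKM in KD. The part of such cells in the value of Cdh11 was not tested.

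The markers of myocardium and endocardium lay within 1.5-fold. Of 7 cardiomyocyte markers 0 differed by at least 1.5-fold, with log2 ratios from -0.25 for Myh6 to 0.14 for Nkx2-5 and a median of -0.07, and their sum was 16743 FPKM in the WT group and 15968 FPKM in the KD group. The defining markers of heart muscle, the tissue named on the labels, were thus present at high levels in both groups. Of 7 endocardial or endothelial markers 0 passed, with a median of 0.04 and sums of 150.4 FPKM and 163.7 FPKM. Cdh5, a member of that list, had 10.5 FPKM in WT against 9.74 FPKM in KD. The 5 erythroid markers had a median of 0.11 and 0 passed. Of the neural and neural crest markers, Tubb3 (12.2 FPKM in WT, 26.9 FPKM in KD) was at least 1.5-fold higher, while Sox10, which defines crest cells, was at 0.0170 FPKM and 0.0511 FPKM. Of the epithelial list only Krt8 and Krt18 reached 1 FPKM, with 0 passing, and of the hepatic and yolk sac list none of 4 did.

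**Figure D5:**
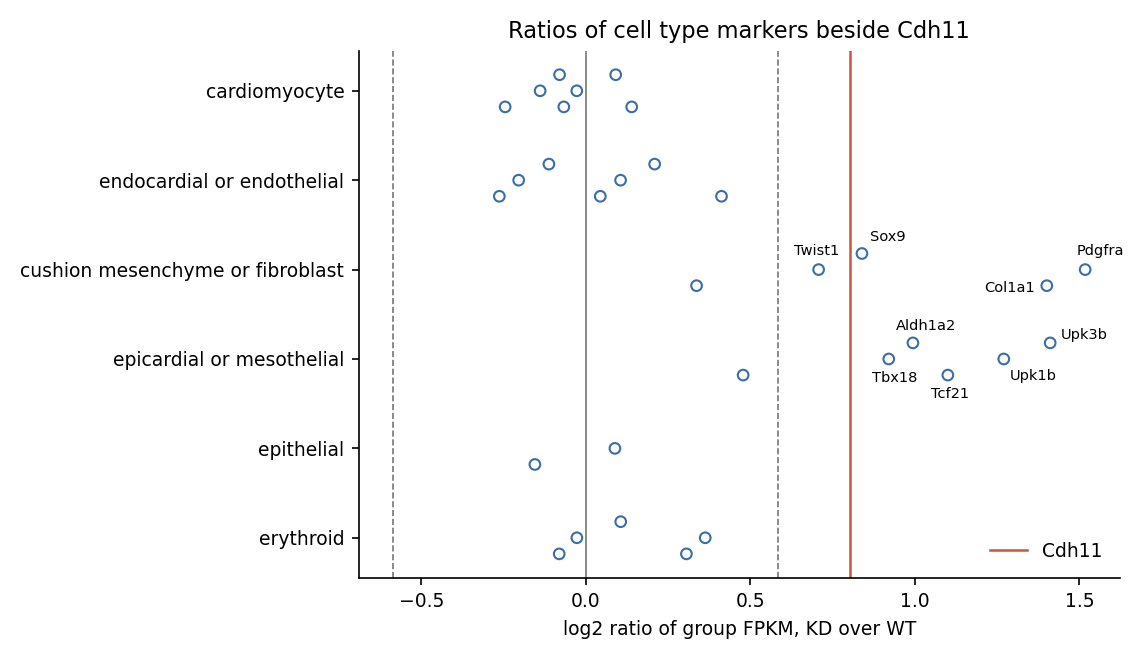
log2 ratio of group FPKM, KD over WT, of cell type markers with at least 1 FPKM in either group, 1 point a gene, the neural markers not drawn, with dashed lines at 1.5-fold and a solid red line at the log2 ratio of Cdh11, 0.80. The mesenchymal and epicardial markers lie to the right of 0, on both sides of the red line, whereas the cardiomyocyte, endocardial, epithelial and erythroid markers lie between the dashed lines.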

How the data were processed

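RNA-seq libraries were made by Smart-Seq2 from E9.5 ventricles and read single-end. Per the submitters' processing notes TopHat, Bowtie2 and Cuffdiff were used with genome build mm10, and the versions and gene annotation are not given in the sources used here. The authors deposited 1 table that holds, for every gene, the FPKM of WT and that of KD, named KO there, with samples assigned from their titles. It holds 0 columns of single embryos. Its columns of the authors' own comparison (fold change, test score, p-value, q-value) were not used.

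From the FPKM values the ratio of KD over WT was taken with no pseudocount. Genes with at least 1 FPKM in either group were kept, and 1.5-fold was the size counted. The 10 genes were found by exact symbol. A gene at 0 in 1 group was counted by its direction and entered no median. No test was made, because the table gives no spread between embryos. The members, lists and threshold were chosen with earlier results of these data known. Genes named are the 10 members, list genes past 1.5-fold, expressed relatives and defining markers; Ctnnbip1, Pnn, Vcl, Des, Tjp1, Furin, Snai1, Lrrtm2 and Lrrtm3 were chosen after their values were seen. Older symbols were matched through RefSeq synonyms (GRCm38.p6), and Dchs2 had no match. The neural marker list is not reported here in full. Strands and overlaps are from GENCODE M21 on the same build, with 1 added to the starts in the table. Python 3.11.15, NumPy 2.4.6, pandas 2.3.3 and Matplotlib 3.10.9 were used.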

Additional observations from a re-analysis of the deposited data

How the results depend on the processing

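The alternatives changed the fold, the filter on low values, the pseudocount and the scaling. Cdh11 was the 1 member past the fold in each of them except at a 25% difference, where Ctnna3 joined it to give 2, and at 2-fold, where there were 0. All genes past the fold, 949 in number, became 2577 at a 25% difference, 336 at 2-fold, 551 with at least 1 FPKM in both groups, 283 with at least 5 FPKM in either group, 3321 with a value above 0 in both groups and 425 with a pseudocount of 1. The share of all genes past the fold, 8.18%, ranged from 2.9% at 2-fold to 22.2% at a 25% difference, and was 3.57% with at least 5 FPKM, which kept 8 of the 10 members (not Ctnna3 and Dsg2), 3.66% with a pseudocount of 1 and 21.1% with a value above 0 in both groups. The 7 genes of the wider lists became 16 at a 25% difference, 18 with a value above 0 in both groups, and 1 at 2-fold (Cdh24), with at least 5 FPKM (Gja5) and with a pseudocount of 1 (Gja5). At a 25% difference the 7 genes, Cdh13 and Twist2 were higher in KD. Ank3, Cdh6, Numb, Pcdh7, Pcdh12, Xirp1 and Zeb2 were lower, so the single direction of the main setting did not hold there. With a value above 0 in both groups Cdh4, Cdh22 and Clstn2 were lower and the others higher. The log2 ratios of the 10 members moved by at most 0.09, less than the 0.1 taken as a move since no spread between embryos is known, and none changed sign. Cdh11 ranged from 0.73 to 0.80 and Ctnna3 from -0.40 to -0.30. The scalings shifted all genes by 0.00492 or less. No paired analysis was possible because single embryos have no values of their own in the columns used, and for the same reason no embryo could be left out in turn. The unknown depth limits most the genes of a few FPKM, here Dsg2, Ctnna3 and Dsc2.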
